A study of Bos taurus with 16 samples.

Results

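The methylation of 9 leukocyte genes was examined in cells brushed from the endometrium of postpartum dairy cows. The members are all cytosine positions, here called sites, that carry the gene symbol PTPRC, ITGB2, LCK, SPI1, CSF3R, LCP1, CD79A, CD79B or IKZF1 in the annotation of the deposited values. There were 171 such sites among the 199395 sites of the table, and the 9 genes were among 8695 genes with at least 2 sites. The sites were picked by gene name, and the 9 names were chosen with earlier results of these data known.

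DNA of endometrial cytobrush samples from multiparous Holstein-Friesian cows was profiled by reduced representation bisulfite sequencing (RRBS), which reads the methylation of single cytosines near MspI cutting sites. Cows received a control diet (CON) or rumen-protected methionine (MET) from day 12 postpartum, were inseminated at days 50 to 64, were brushed 4 to 8 h later, and were grouped afterwards by pregnancy (P) or no pregnancy (noP). CON_P, CON_noP, MET_P and MET_noP were represented by 4 libraries each, 16 in all, named here by their library number. Library numbers S14, S18, S26 and S30 were CON_P and S12, S16, S24 and S28 were CON_noP. Library numbers S15, S19, S27 and S31 were MET_P and S13, S17, S25 and S29 were MET_noP. DNA was isolated from more cytobrush samples in the noP than in the P groups, and from more samples than there are libraries. How these samples were divided over the libraries is not given in the sources used here, so the spread between libraries may not be the spread between single cows. The values are percentages without read counts, so the depth at a site is unknown and no counting error can be attached to a single value.

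A cytobrush collects the lining of the uterus, which is mainly epithelium, together with the leukocytes that lie in it. After insemination, neutrophils move into the bovine uterus as part of its normal clearance response. Genes that define a blood cell lineage usually carry little methylation at their regulatory DNA in that lineage and more in other cell types, and such genes are used in other tissues to estimate how many leukocytes a sample holds. In a mixture of cells, a shift in the share of a cell type and a shift of methylation within 1 cell type cannot be told apart from these percentages. Neither expression nor cell counts were part of the values, so the cell types in each library could not be checked against expressed markers.

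The 9 genes cover several lineages. PTPRC encodes CD45, the phosphatase on the surface of nearly all leukocytes, ITGB2 encodes the common beta chain of the leukocyte integrins, and LCP1 encodes the actin-bundling protein L-plastin. IKZF1 encodes the lymphoid transcription factor Ikaros, LCK is the kinase next to the T cell receptor, and CD79A and CD79B are the signalling chains of the B cell receptor. SPI1 encodes PU.1, the transcription factor of the myeloid and B lineages, and CSF3R is the receptor for the granulocyte growth factor G-CSF.

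The genes were covered unequally. ITGB2 had 47 sites, PTPRC 33, SPI1 29, IKZF1 26, LCK 15, CD79A 10, CD79B 6, CSF3R 3 and LCP1 2. On the ARS-UCD1.2 assembly, the sites of PTPRC (ENSBTAG00000023144) lay at chr16:77604428-77634322, those of ITGB2 (ENSBTAG00000017060) at chr1:144762351-144788133 and those of SPI1 (ENSBTAG00000021709) at chr15:77201474-77229574. Those of IKZF1 (ENSBTAG00000014016) lay at chr4:5516979-5591372, those of LCK (ENSBTAG00000012695) at chr2:121263138-121283503 and those of CD79A (ENSBTAG00000001882) at chr18:51346531-51348112. CD79B (ENSBTAG00000044204) was measured at chr19:48133629-48133712, CSF3R (ENSBTAG00000013334) at chr3:109420805-109420835 and LCP1 (ENSBTAG00000007079) at chr12:16305549-16305583. The annotation gives each site as lying in a gene and does not say whether in an exon, an intron or a promoter. Genomic sequence of this assembly was not used here.

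Most member sites had intermediate methylation. Averaged over the 16 libraries, 136 of the 171 sites (79.5%) lay between 10% and 90%, beside 55.4% of all sites of the table. The other 35 member sites lay above 90%, and 0 lay below 10%. The table holds only positions with a value above zero in every library, so fully unmethylated positions were not among the sites that could be seen. The members also varied more between libraries than the table as a whole. For sites between 10% and 90%, the median range from the lowest to the highest library was 41.0 percentage points over the members and 33.2 over all such sites. For gene means, it was 20.4 percentage points over the 9 genes and 10.8 over all 8695 genes. A mean over few sites varies more than one over many, and the genes differ in their number of sites. The gene means were also not matched by level. Over all sites of any level, the median range was 21.7 percentage points, below that of the sites between 10% and 90%.

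PTPRC had a mean of 65.2% over the 16 libraries. In CON_P, its gene mean was 77.8% in S14, 68.7% in S18, 47.5% in S26 and 64.6% in S30. In CON_noP, the libraries lay from 59.99% to 65.3%, and in MET_P from 66.7% to 74.5%. In MET_noP, the gene mean of PTPRC was 72.2% in S13, 42.9% in S17, 70.8% in S25 and 63.7% in S29. S17 and S26 were the lowest libraries and lay apart from the other 14, and the groups of each of the 4 comparisons overlapped. With S17 left out, the PTPRC difference between MET_P and MET_noP went from 8.21 to 1.70 percentage points, and that between MET_noP and CON_noP turned from -0.66 to 5.84. With S26 left out, the difference between MET_P and CON_P went from 5.92 to 0.19.

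ITGB2 had a gene mean of 38.1% over the libraries. In CON_P, the ITGB2 values were 48.1%, 44.0%, 35.4% and 29.996%, and in CON_noP they were 33.5%, 42.6%, 37.6% and 34.9%, in the order of library numbers. In MET_P, ITGB2 was at 33.03%, 32.0%, 36.0% and 38.6%, and in MET_noP at 39.4%, 33.5%, 50.4% and 39.8%. S25 of MET_noP was the highest library and S30 of CON_P the lowest, and the groups overlapped. LCP1, with 2 sites, had the widest range of the 9 genes, from 9.22% in S17 to 58.3% in S16. The CON libraries of LCP1 had means of 31.1% ± 15.1 (SD, n = 4) with pregnancy and 31.4% ± 20.4 without, and the MET libraries 22.7% ± 5.55 and 15.4% ± 6.02. Without S16, the LCP1 difference between MET_noP and CON_noP went from -15.97 to -6.98 percentage points.

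Of the lymphoid genes, IKZF1 lay between 55.0% in S25 and 70.0% in S19. In CON_noP, IKZF1 was at 66.4%, 63.7%, 66.8% and 68.7%, and in MET_noP at 61.3%, 63.0%, 55.0% and 62.1%. All 4 MET_noP libraries lay below all 4 CON_noP libraries at IKZF1. LCK varied less, from 31.01% in S26 to 43.2% in S25. CD79A ranged from 38.6% in S16 to 61.3% in S15, and CD79B from 89.7% in S25 to 98.9% in S18.

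SPI1 was at 63.5%, 60.3%, 58.3% and 69.3% in CON_P and at 76.4%, 71.4%, 72.9% and 67.4% in MET_P. In MET_noP, SPI1 was at 69.2%, 72.3%, 55.6% and 66.1%, and the CON_noP libraries lay from 58.5% to 69.1%. S15 of MET_P was the highest SPI1 library and S25 of MET_noP the lowest, and MET_P overlapped with CON_P by 1 library of each group. CSF3R, with 3 sites, lay between 82.0% in S15 and 97.6% in S17, and the libraries of the 4 groups overlapped.

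**Figure D1:**
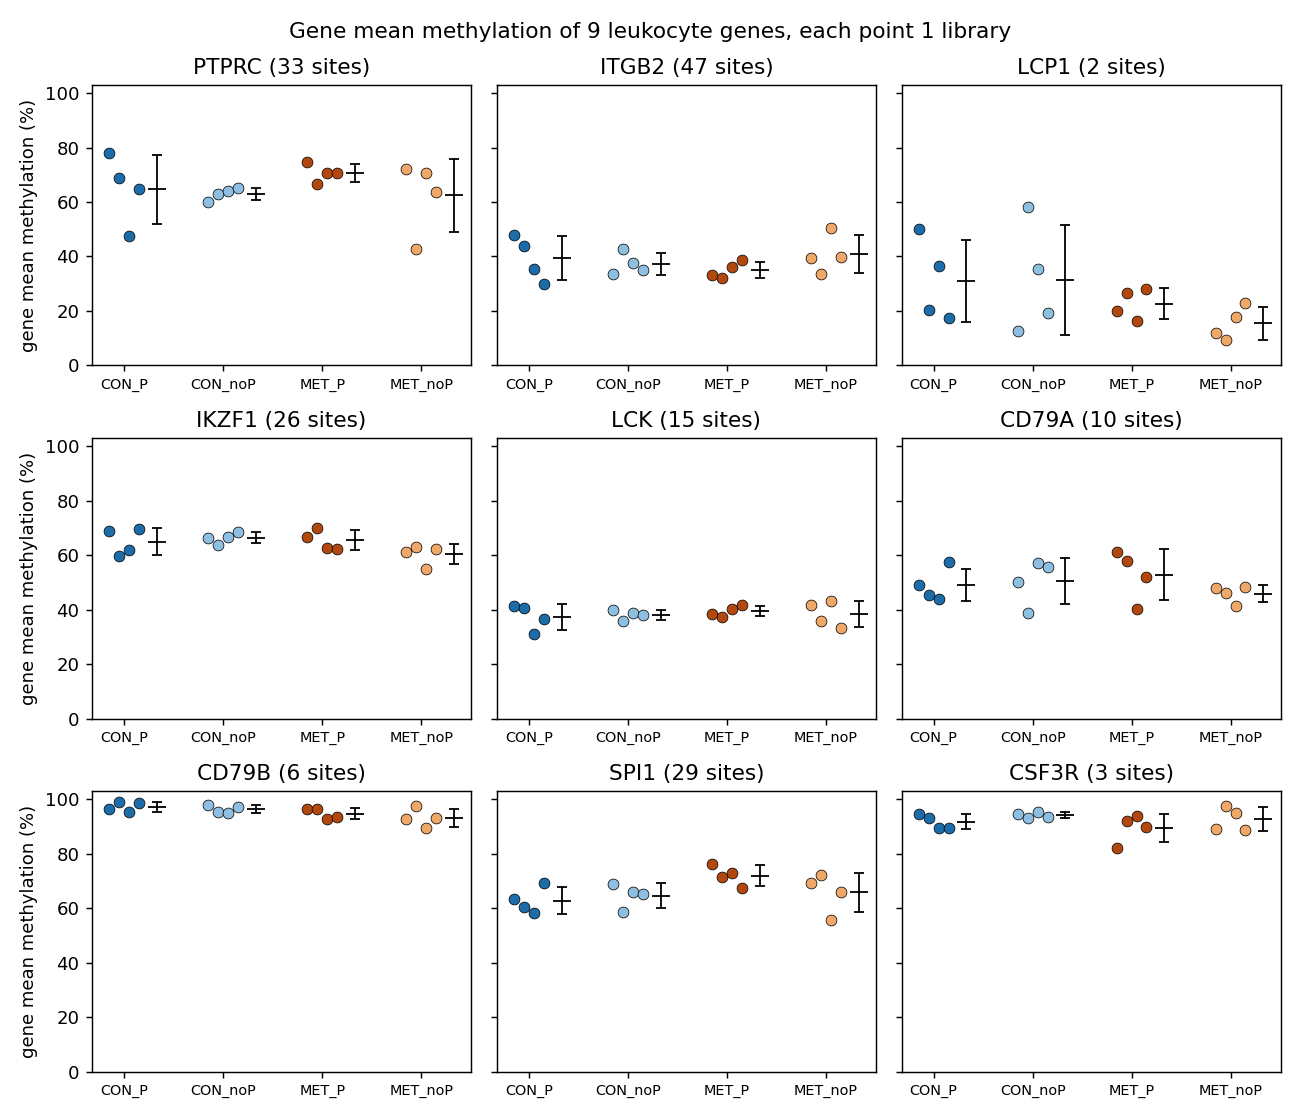
Each panel shows the gene mean methylation (%, y axis) of 1 of the 9 genes by group (x axis), where each point is 1 library and the bar beside the points is the mean ± SD of 4 libraries. At PTPRC, S26 of CON_P (47.5%) and S17 of MET_noP (42.9%) lie below the other libraries, and at ITGB2 the highest point is S25 of MET_noP (50.4%).

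The 9 genes were then set side by side to see whether the same library stood out over them. For the mean of the 9 gene means, CON_P had 59.8% ± 4.17 (SD, n = 4), CON_noP 60.2% ± 1.54, MET_P 60.2% ± 1.28 and MET_noP 57.2% ± 1.29. The highest library was S14 of CON_P with 65.5%, and the lowest were S17 of MET_noP with 55.4% and S26 of CON_P with 55.5%. Between its highest and lowest library, this mean ranged over 10.1 percentage points. S14 lay above the 16-library mean at 7 of the 9 genes, and S26 and S29 at 1 each. S17, with the lowest mean, lay below at 6 genes and was the highest library at CSF3R. The mean gives LCP1, with 2 sites, the same weight as the other genes. By the median deviation over the 9 genes, S25 of MET_noP was the lowest with -5.79 percentage points, beside -2.63 in S26 and -2.39 in S17, and S14 was again the highest with 2.91.

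No library was at the same end for most genes. Among the 9 genes, S25 was the highest at ITGB2 and LCK and the lowest at SPI1, CD79B and IKZF1. S15 was the highest at SPI1 and CD79A and the lowest at CSF3R. S17 was the lowest at PTPRC and LCP1. Over all 8695 genes, S25 was the highest library at 11.4% and the lowest at 7.59% of them, and S26 was the lowest at 13.9%, S16 at 13.3% and S17 at 9.05%. S14, the highest at 1 of the 9 genes, was the highest at 11.1% of all genes. The mean over all 199395 sites was 65.1% in S14, the highest library there too, and 61.3% to 64.7% in the other 15 libraries.

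Gene means join regions that behaved differently, so neighbouring sites were also averaged in clusters of at least 5 sites with gaps of at most 200 bases. The 9 genes held 16 such clusters with 141 of the 171 sites, and 12 of the clusters had a mean between 10% and 90%. CSF3R and LCP1 had none. Sites of a cluster lie close enough to share reads and are not independent measurements. Over the 12 clusters, the median range between libraries was 34.4 percentage points, beside 21.9 over all 7688 clusters of the table in that interval.

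The 24 sites of PTPRC B, at chr16:77634191-77634322, carried the low values of S17 and S26. In CON_P, this cluster was at 76.0%, 61.0%, 32.8% and 59.1%, and in MET_noP at 67.1%, 27.2%, 66.5% and 58.3%. The CON_noP libraries lay from 50.7% to 59.2% and the MET_P libraries from 60.6% to 71.3%. S17 and S26 were below the mean at all 24 sites of PTPRC B, and S17 was the lowest library at 20 of them. S14 was above the mean at all 24 and the highest library at 13. At PTPRC A, chr16:77604428-77604534 with 7 sites, S17 was at 81.6% and S26 at 84.1%, within the range of 70.6% to 88.2% of the libraries. The low values of these libraries were thus found in 1 of the 2 PTPRC clusters.

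The ITGB2 clusters were neighbours with different libraries at their ends, although some libraries were high at both. ITGB2 A, at chr1:144762351-144762553 with 14 sites, was highest in S18 of CON_P with 43.3% and lowest in S28 of CON_noP with 12.5%. S18 was followed there by S25 with 38.3% and S14 with 35.3%. ITGB2 B, at chr1:144763122-144763367 with 21 sites, was highest in S25 of MET_noP with 45.8% and lowest in S30 of CON_P with 9.55%. S14 followed S25 at ITGB2 B with 36.0%. S25 was above the mean at all 21 sites of ITGB2 B and the highest library at 15. At LCK A, chr2:121269625-121269704, S25 had 24.6%, the highest value at each of the 10 sites, and the other libraries lay from 7.63% to 20.02%.

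The CD79A clusters went in opposite directions in S25. At CD79A A, chr18:51346531-51346573, S25 had the highest value, 62.4%, followed by S18 with 60.9%, and the other libraries lay from 26.97% to 50.7%. At CD79A B, chr18:51348071-51348112, S25 had the lowest value, 20.2%, followed by S18 with 30%, and the other libraries lay from 42.6% to 78.7%. The 10 sites of CD79A therefore averaged 41.3% in S25 and 45.5% in S18, within the range of all libraries, although both were at the ends of each cluster. Without S25, the difference between MET_P and MET_noP at CD79A B went from 11.2 to 0.38 percentage points.

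S25 was also the lowest library at 4 clusters of IKZF1 and SPI1. It had 41.2% at IKZF1 B (chr4:5560144-5560190), beside 53.97% to 77.5% in the others, and 13.1% at IKZF1 D (chr4:5591238-5591372), beside 13.2% in S18 and 20.9% to 39.8% in the rest. At SPI1 B (chr15:77217195-77217315), S25 had 38.4% and the others 45.5% to 76.4%. At SPI1 D (chr15:77227794-77227930), S25 had 32.1%, S16 32.7% and the others 37.4% to 65.4%. At each of these 4 clusters, S25 was below the mean at all sites.

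Over the 12 clusters between 10% and 90%, S25 was the highest at 3 and the lowest at 5. Over all 7688 clusters in that interval, S25 was the highest at 15.3% and the lowest at 8.32%. S17 was the lowest at 2 of the 12, and at 12.9% of all. S14 was the highest at 1 and the lowest at 1, and was the highest at 16.99% of all. S15 was the highest at the 3 SPI1 clusters in the interval, and at 11.2% of all. Within S25, the clusters at which it was highest had means over the libraries of 14.5% to 42.7%, and those at which it was lowest had means of 26.8% to 63.5%. The genes therefore did not give 1 common order of the libraries.

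**Figure D2:**
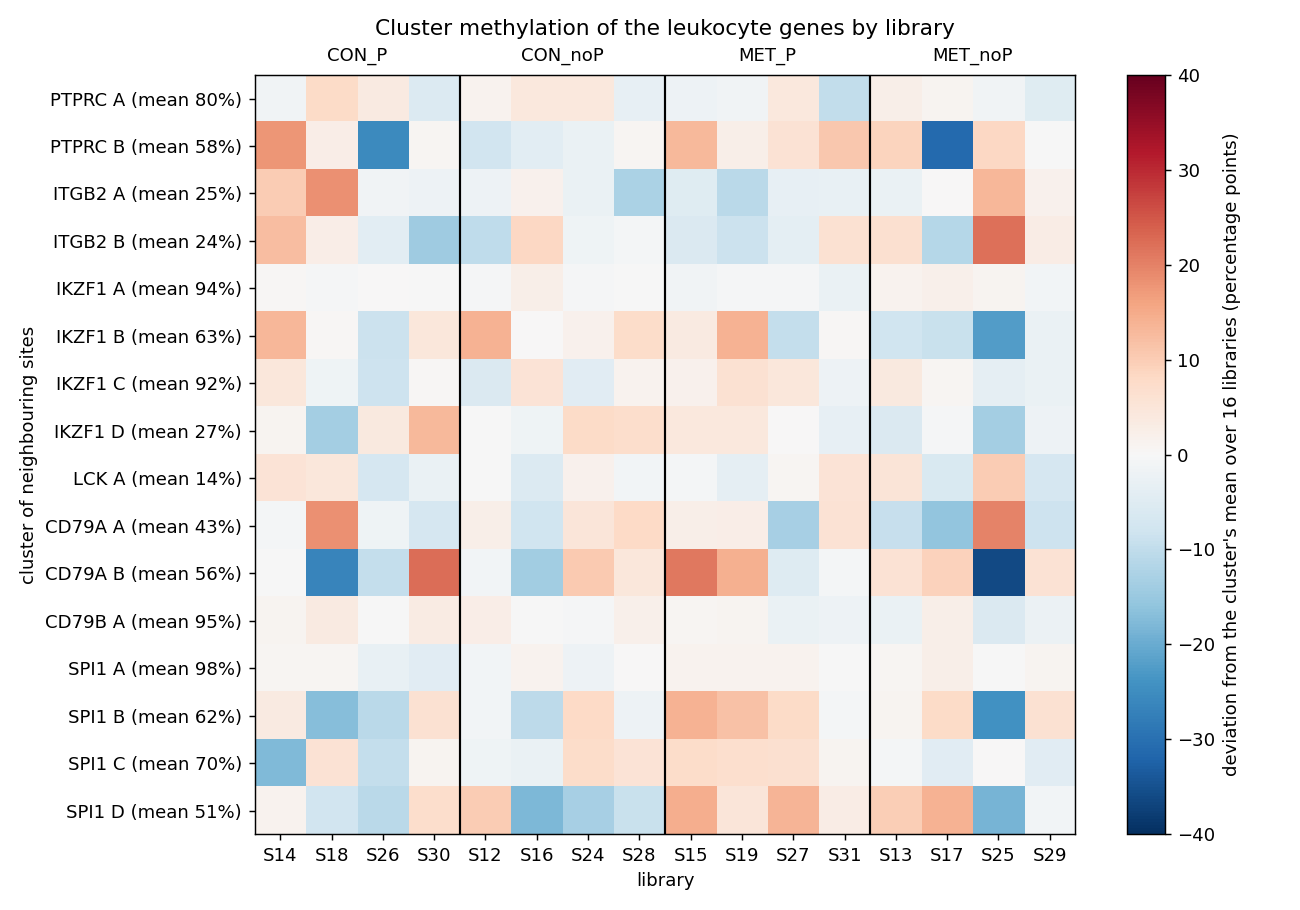
The map shows, for each of the 16 clusters (rows, with the mean over 16 libraries) and each library (columns, by group), the deviation from the cluster's mean in percentage points (colour). In S25, ITGB2 B, LCK A and CD79A A are above the mean and CD79A B, IKZF1 B, IKZF1 D, SPI1 B and SPI1 D are below it, and S17 and S26 stand apart at PTPRC B.

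**Figure D3:**
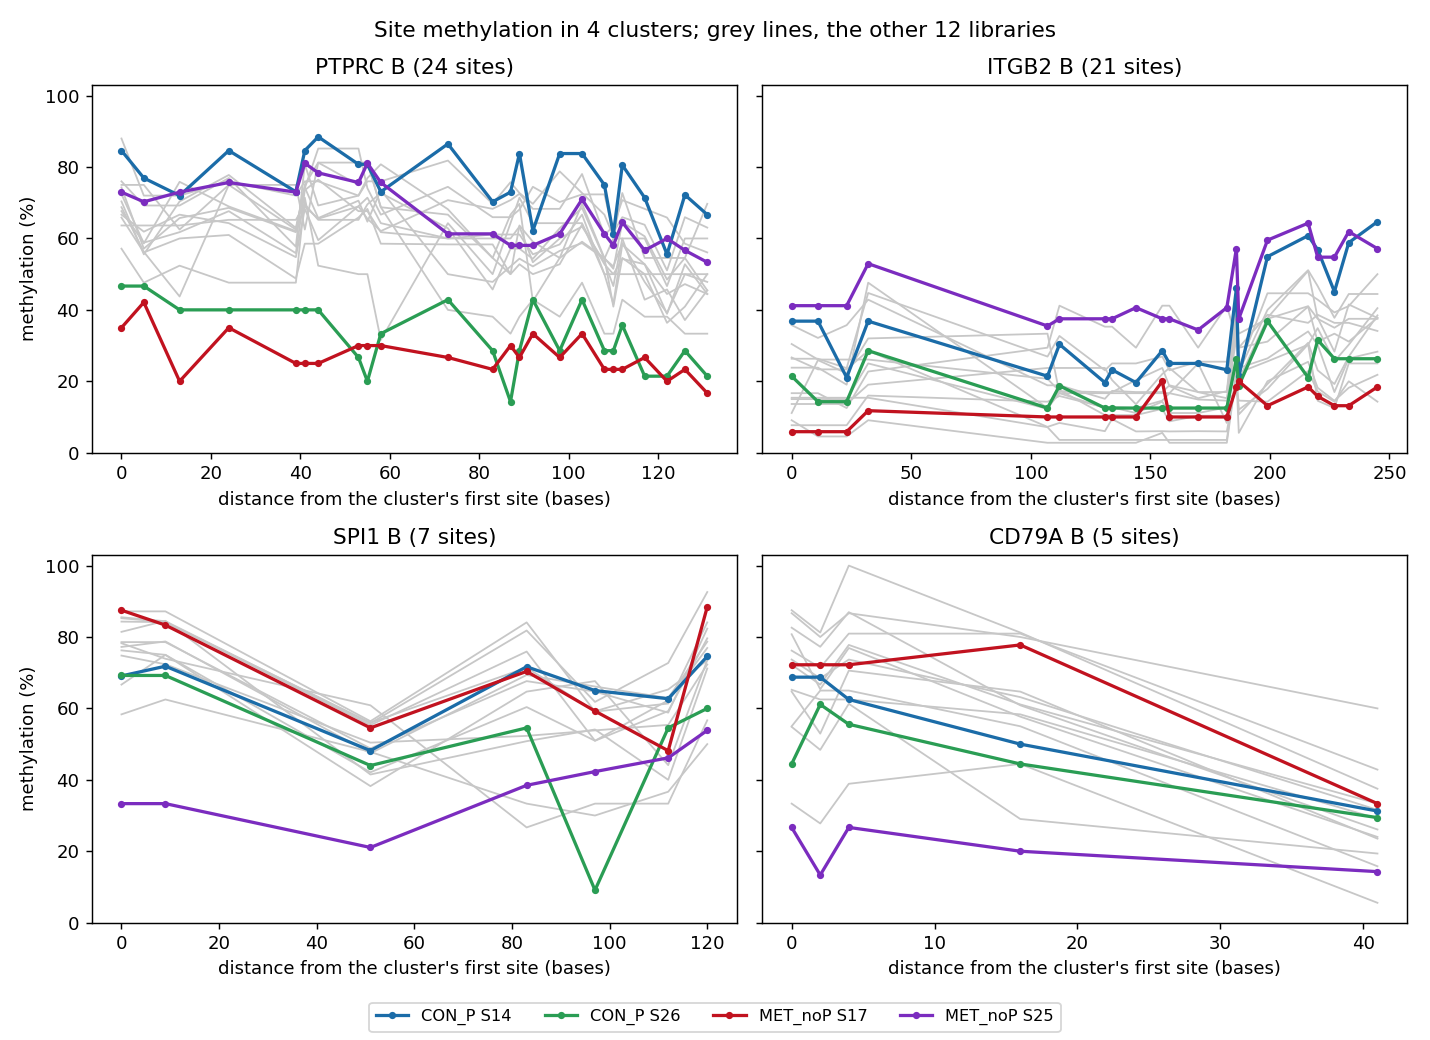
Methylation (%, y axis) at each site of 4 clusters is drawn against the distance from the first site in bases (x axis), with a line for each library. S17 and S26 run below most libraries along PTPRC B, S25 runs high along ITGB2 B and low along CD79A B, and at SPI1 B it rises toward the other libraries at the last sites.

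The question of the control diet was whether the genes differed between cows that later conceived and those that did not. For CON_P against CON_noP, limma gave an adjusted p under 0.05 at 0 of the 171 sites, 0 of the 9 genes and 0 of the 16 clusters. Over the whole table, it did so at 0 of 199395 sites, 0 of 8695 genes and 0 of 13261 clusters. The zeros are thus not particular to the members. At an unadjusted p under 0.05 there was 1 site (SPI1 at position 77201507) beside 3.93% of all sites of the table, 0 genes beside 3.48% of all genes and 0 clusters beside 3.29%. Member sites without overlap of the groups numbered 0, beside 1.99% of all sites, 1.94% of all genes and 2.01% of all clusters. The median difference of the 9 genes was -0.698 percentage points, with 3 genes higher and 6 lower in CON_P, and the median over all genes was 0.442. With a single library left out, the median of the 9 genes was -2.07 (without S14) to 0.467 (without S24), and also above zero without S18 or S26. Leaving out 1 library turned the sign of the difference at 6 of the 9 genes. It gave 1 to 5 sites with an unadjusted p under 0.05. The highest count, 5, was without S30, where the share of all sites was 6.19%.

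Within the methionine diet, MET_P was higher than MET_noP at 7 of the 9 gene means, with a median difference of 5.10 percentage points beside 0.280 over all genes. ITGB2 and CSF3R had lower means in MET_P. Over 51 other leukocyte genes, read further below, the median difference was 0.528 percentage points, with 30 genes higher in MET_P. Without S17 the median of the 9 genes was 2.91 and without S25 it was 2.82, with 7 genes higher in both cases. With limma, 0 sites, 0 genes and 0 clusters of the members had an adjusted p under 0.05, and the smallest adjusted p among the genes was 0.881. Over the whole table, an adjusted p under 0.05 was also found at 0 sites, 0 genes and 0 clusters. The unadjusted p was under 0.05 at 7 of the 171 member sites (4.09%), beside 5.12% of all sites. It was under 0.05 at 0 genes, beside 5.58% of all genes, and 1 cluster, beside 5.41% of all clusters. The groups did not overlap at 5 member sites, beside 2.9% of all sites. Member genes without overlap numbered 0, beside 3.45% of all genes, and member clusters 2, beside 3.37% of all clusters. The 7 sites became 14 without S17 (beside 7.23% of all sites), 12 without S31 (beside 5.44%) and 11 without S27 (beside 4.63%). The 0 genes became 2 without S27 (beside 4.66% of all genes), 1 without S17 (beside 8.56%) and 1 without S29 (beside 5.41%).

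The cluster below the unadjusted level was SPI1 C, at chr15:77226215-77226278. Its methylation was 77.0%, 76.3%, 76.1% and 70.7% in MET_P and 68.8%, 65.2%, 69.8% and 65.0% in MET_noP, and the groups did not overlap. The means were 75.02% ± 2.91 and 67.2% ± 2.45 (SD, n = 4 each). In M values, which are log2 of the methylated over the unmethylated percent, they differed by 0.54 with an SE of 0.22 (limma, adjusted p = 0.897). Within it, the site at 77226252 had 82.5%, 85.4%, 89.5% and 83.6% in MET_P and 75%, 65%, 70% and 71.4% in MET_noP (limma, adjusted p = 0.890). In the control groups, this site was at 45.7% in S14 and at 64.0% to 87.5% in the other 7 libraries.

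The other member sites below this level in the same contrast lay in ITGB2 A, IKZF1 A, IKZF1 B and IKZF1 C. At ITGB2 position 144762505, methylation was 19.1% ± 5.98 in MET_P and 37.2% ± 8.84 in MET_noP (SD, n = 4 each, limma adjusted p = 0.891), and at 144762543 it was 17.9% ± 5.15 and 34.7% ± 11.05 (limma adjusted p = 0.926). At IKZF1 position 5530220, it was 92.9% ± 1.44 and 96.9% ± 0.625 (limma adjusted p = 0.903). The groups did not overlap at these 3 sites. Position 144762504, adjacent to 144762505, was at 14.8% ± 3.22 in MET_P and 18.6% ± 7.68 in MET_noP, and there the groups overlapped. ITGB2 A itself was the other cluster without overlap, at 19.7% ± 3.75 in MET_P and 28.2% ± 7.02 in MET_noP, and the difference of -8.51 percentage points was -5.12 without S25.

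At PTPRC position 77634264, in PTPRC B, methylation was 81.8%, 60%, 66.7% and 74.5% in MET_P and 70.7%, 26.7%, 61.3% and 50% in MET_noP. The difference of 18.6 percentage points did not pass (limma, adjusted p = 0.931), and without S17 it was 10.1. At SPI1 position 77217195, in SPI1 B, the MET_P libraries had 85.5%, 87.2%, 85.3% and 74.8% and the MET_noP libraries 76.2%, 87.5%, 33.3% and 77.2%. The difference of 14.6 percentage points had an adjusted p of 0.950 with limma, and without S25 it was 2.87. These 2 sites were picked because the study's own list for this contrast holds them, so they are no independent choice. The study called sites by logistic regression on read counts, another test than limma on percentages. Its text names PTPRC among the genes with increased methylation in MET_P, the direction seen here. On data simulated from the control groups, the limma test called 0 of 2000 sites changed by 40 percentage points.

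For methionine among cows that conceived, 5 of the 9 genes had a higher and 4 a lower mean in MET_P than in CON_P. The median difference of the 9 genes was 0.486 percentage points and that of all genes 0.526. With a single library left out, the median of the 9 genes lay from -1.27 (without S18) to 1.78 (without S30), and it was also below zero without S19 or S26. With limma, 0 member sites, genes or clusters had an adjusted p under 0.05, and so did 0 of the whole table. The unadjusted p was under 0.05 at 7 of the 171 member sites (4.09%), beside 5.83% of all sites. It was under 0.05 at 1 gene, beside 7.22% of all genes, and 3 clusters, beside 7.01% of all clusters. The groups did not overlap at 5 member sites, beside 3.09% of all sites. Member genes without overlap numbered 0, beside 3.78% of all genes. Member clusters without overlap numbered 2, ITGB2 A and IKZF1 A, beside 3.72% of all clusters. The number of sites with an unadjusted p under 0.05 depended on single libraries. It was 16 without S30 (beside 9.61% of all sites), 12 without S14 (beside 6.79%) and 11 without S18 (beside 6.56%). It was 2 without S15 (beside 4.91% of all sites) and 1 without S27 (beside 5.06%). With sets of consecutive library numbers as a block there were 3 sites (beside 5.2% of all sites) and 2 genes (beside 6.71% of all genes).

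The gene was SPI1, with a mean of 72.0% ± 3.76 in MET_P and 62.8% ± 4.81 in CON_P (SD, n = 4 each). In M values, the groups differed by 0.59 with an SE of 0.20 (limma, adjusted p = 0.684). The 9.19 percentage points between them became 7.67 to 11.35 when a single library was left out. SPI1 B was at 70.6% ± 6.51 in MET_P and 57.9% ± 11.2 in CON_P, SPI1 C at 75.02% ± 2.91 and 64.5% ± 10.6, and SPI1 D at 59.7% ± 6.01 and 48.2% ± 8.18. At SPI1 position 77227851, in SPI1 D, the 4 MET_P libraries lay above the 4 CON_P libraries, with means of 63.1% ± 6.16 and 47.1% ± 5.64 (limma, adjusted p = 0.827).

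The 3 clusters with an unadjusted p under 0.05 were ITGB2 A, SPI1 A and CD79B A. ITGB2 A had 20.3%, 14.2%, 21.9% and 22.2% in MET_P and 35.3%, 43.3%, 23.7% and 23.0% in CON_P, and the groups did not overlap (limma, adjusted p = 0.711). The difference of -11.7 percentage points was -7.67 without S18. SPI1 A, at chr15:77201474-77201515, was 98.7% ± 0.796 in MET_P and 96.2% ± 2.65 in CON_P, and CD79B A was 94.8% ± 1.99 and 97.4% ± 1.83 (limma, adjusted p = 0.711 for both). Both lie close to full methylation, where a few percentage points make a large difference in M values.

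An LCK site outside the clusters and a site of CD79B A also had an unadjusted p under 0.05. LCK position 121283436 was at 83.8%, 80%, 82.5% and 75.4% in MET_P and at 67.4%, 71.4%, 53.3% and 67.6% in CON_P, without overlap (limma, adjusted p = 0.827). CD79B position 48133676 was at 96.3%, 98.2%, 91.2% and 92.7% in MET_P and at 100%, 100%, 100% and 98.3% in CON_P, the lowest p among the member sites of this comparison (limma, adjusted p = 0.827).

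For methionine among cows that did not conceive, 3 genes had a higher and 6 a lower mean in MET_noP than in CON_noP, with a median difference of -1.50 percentage points beside 0.634 over all genes. Without S17 this median was -3.16, without S13 -2.89 and without S25 -2.34. With limma, 0 member sites, genes or clusters had an adjusted p under 0.05, and so did 0 of the whole table. The unadjusted p was under 0.05 at 9 of the 171 member sites (5.26%), beside 5.13% of all sites. Of the 9, 1 was higher in MET_noP, beside 3.36% of all sites, and 8 were lower, beside 1.77% of all sites. The unadjusted p was under 0.05 at 1 gene, beside 6.41% of all genes, and 1 cluster, beside 5.94% of all clusters. The groups did not overlap at 3 member sites, beside 2.75% of all sites, at 1 gene, beside 3.75% of all genes, and at 1 cluster, beside 3.27% of all clusters. The 9 sites became 14 without S17 (beside 7.18% of all sites), 5 without S28 (beside 5.02%) and 5 without S29 (beside 5.34%).

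The gene was IKZF1, whose mean was 60.3% ± 3.64 in MET_noP and 66.4% ± 2.07 in CON_noP (SD, n = 4 each). In M values, this was a difference of -0.37 with an SE of 0.14 (limma, adjusted p = 0.748). The difference of -6.07 percentage points became -6.97 to -4.28 when a single library was left out. With sets of consecutive library numbers as a block, 0 of the 9 genes had an unadjusted p under 0.05, beside 6.91% of all genes. The count was also 0 without S24, S28, S13 or S25, where the share of all genes was 4.95% to 6.41%. The cluster was IKZF1 B, with 55.6%, 54.6%, 41.2% and 60.7% in MET_noP and 77.5%, 63.7%, 65.2% and 70.8% in CON_noP. The 4 MET_noP libraries lay below the 4 CON_noP libraries at IKZF1 B (limma, adjusted p = 0.754), and the difference of -16.2 percentage points was -12.3 without S25. In the groups that conceived, this cluster was at 65.6% ± 9.67 in MET_P and 65.9% ± 9.08 in CON_P. Its first site, at 5560144, had 35.8% ± 6.36 in MET_noP and 56.4% ± 6.09 in CON_noP, without overlap (limma, adjusted p = 0.906).

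A pair of further sites did not overlap between MET_noP and CON_noP. ITGB2 position 144778759 was at 25%, 39.5%, 29.2% and 44.4% in MET_noP and at 64.3%, 47.4%, 73.3% and 64.3% in CON_noP, with means of 34.5% ± 8.99 and 62.3% ± 10.8 (limma, adjusted p = 0.906). The adjacent position 144778760 had means of 30.5% and 35.4% in these groups. In the same library, adjacent positions with a mean between 10% and 90% differed by a median of 7.53 percentage points over 4745 pairs of the table. Over the 5 member pairs, the median was 12.4 percentage points and the largest difference 39.3. PTPRC position 77606278 was at 98.0%, 95.2%, 97.1% and 95.8% in MET_noP and at 100%, 100%, 100% and 98.2% in CON_noP (limma, adjusted p = 0.906).

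Whether the difference by outcome changed with the diet was tested by the interaction over all 16 libraries. With limma, 0 member sites, genes or clusters had an adjusted p under 0.05, where 2 of all 199395 sites (0.001%) did. The unadjusted p was under 0.05 at 8 member sites, beside 5.25% of all sites, at 0 genes, beside 5.38%, and at 2 clusters, beside 5.37%. The clusters were ITGB2 A and SPI1 C (limma, adjusted p = 0.887 for both). At ITGB2 A, P was above noP by 10.1 percentage points with the control diet and below it by -8.51 with methionine. These differences were 6.09 without S18 and -5.12 without S25. At SPI1 C, P was below noP by -7.25 with the control diet and above it by 7.82 with methionine. The first of these was -3.03 without S14. Of the 8 sites, 6 lay in ITGB2 A, 1 in SPI1 C and 1 in LCK.

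The single sites with the widest range between libraries were again at their ends in a few libraries. CD79A position 51348075 ranged from 26.7% in S25 to 100% in S15, ITGB2 position 144788133 from 32.1% in S25 to 100% in S17, and PTPRC position 77634235 from 25% in S17 to 88.5% in S14. SPI1 position 77217292 ranged from 9.09% in S26 to 67.6% in S12, and LCP1 position 16305583 from 6.67% in S17 to 58.3% in S16. LCK position 121283436 ranged from 50% in S25 to 84.2% in S17, and IKZF1 position 5560144 from 19.05% in S27 to 72.2% in S14. CSF3R position 109420805 was lowest in S15 with 71.0%, and CD79B position 48133712 was lowest in S25 with 76.2%. Of these 9 sites, S25 was lowest at 4.

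Beside the members, 3 further gene lists were read: other leukocyte genes, of which 51 of 85 were measured with at least 2 sites, epithelial genes, 27 of 44, and stromal and vascular genes, 25 of 40. The mean of the list in a library lay from 61.3% to 65.2% for the other leukocyte genes, from 36.9% to 46.7% for the epithelial genes and from 60.01% to 61.8% for the stromal and vascular genes. With limma, 0 genes of these lists had an adjusted p under 0.05 in any of the 4 comparisons, and neither had any of the 8695 genes. At an unadjusted p under 0.05, the other leukocyte genes had 1 higher and 1 lower in CON_P than in CON_noP, 4 and 1 in MET_P than in MET_noP, 4 and 3 in MET_P than in CON_P, and 1 and 0 in MET_noP than in CON_noP. Over all genes, the shares at this level were 3.48%, 5.58%, 7.22% and 6.41% in the same order. The median difference of the 51 other leukocyte genes was -0.00371, 0.528, 1.01 and 0.424 percentage points in this order. Over all genes, it was 0.442, 0.280, 0.526 and 0.634. The epithelial list had 1 lower between MET_P and CON_P and 1 higher between MET_noP and CON_noP, and the stromal and vascular list had 0.

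By the smallest p in each list, CD74, the invariant chain of MHC class II, was at 27.6% ± 6.08 in MET_P and 15.2% ± 4.55 in CON_P (SD, n = 4 each), without overlap (limma, adjusted p = 0.682). The T cell surface receptor CD6 was at 97.9% ± 1.07 and 94.6% ± 1.56 (limma, adjusted p = 0.682). BLK, a kinase of B cells, was at 95.7% ± 2.10 in MET_noP and 88.0% ± 4.12 in CON_noP, without overlap (limma, adjusted p = 0.680). Of the epithelial genes, the growth factor receptor ERBB3 was at 19.5% ± 7.28 in MET_noP and 10.7% ± 2.13 in CON_noP (limma, adjusted p = 0.748). The membrane protease PRSS8 was at 13.4% ± 7.04 in MET_P and 24.1% ± 7.18 in CON_P (limma, adjusted p = 0.684). The means of these genes rest on few sites: 3 in CD74, 3 in CD6, 2 in BLK, 4 in ERBB3 and 2 in PRSS8.

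Some libraries that stood at an end for member clusters deviated over the epithelial list, and others did not. S25 deviated there by 5.63 percentage points from the mean over the libraries and was above it at 25 of the 27 genes. S14 deviated by 4.60 and was above at 16. S18, highest at ITGB2 A and PTPRC A, deviated by 2.00 and was above at 21. S17 deviated by -4.23 and was above at 6, and S30 deviated by -3.78 and was above at 4. S26, low at PTPRC B, deviated by 0.738, S15, highest at 3 SPI1 clusters, by -0.00871, and S31, lowest at PTPRC A, by 0.590. Over the 51 other leukocyte genes, S25 deviated by -1.97, S26 by -2.08, S16 by -1.94, S17 by 0.277 and S14 by 1.44. S15, S19 and S27 deviated there by 1.67, 1.72 and 1.78. S25 was the lowest library at 12 of the 51 and the highest at 3, beside 7.59% and 11.4% of all genes. Over the stromal and vascular list, the libraries deviated by -0.947 to 0.888. The part of these deviations in the values of the member genes was not tested.

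**Figure D4:**
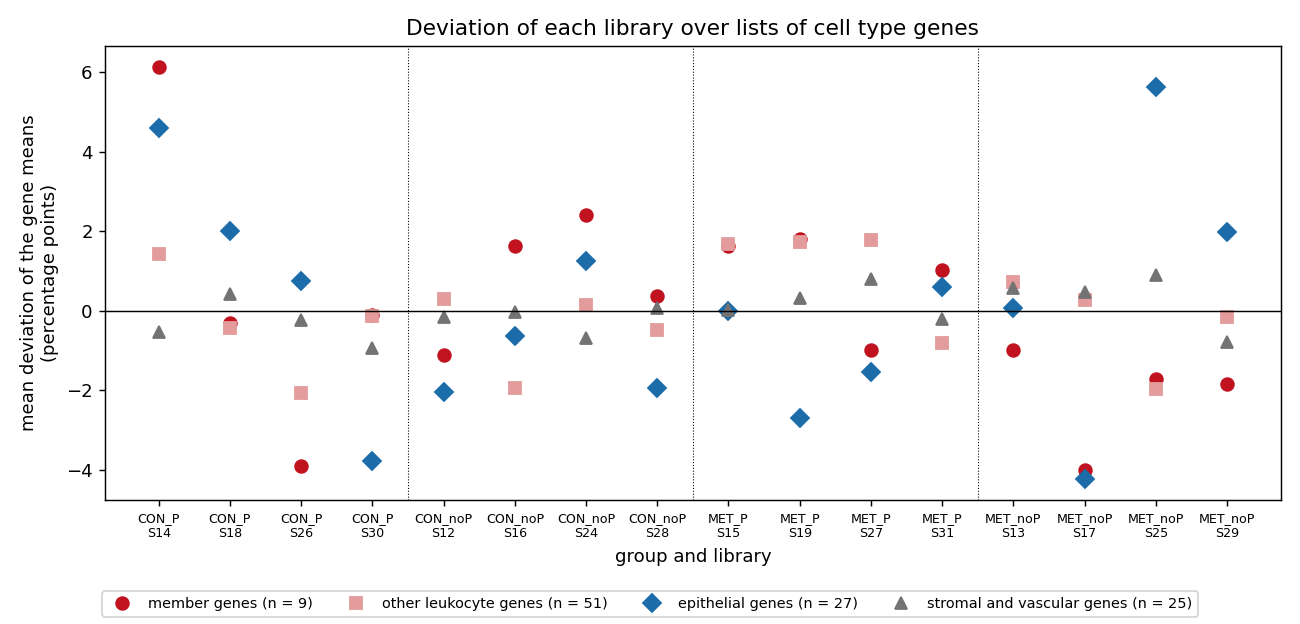
For each library (x axis, by group), the points show the mean deviation of the gene means from their mean over 16 libraries (percentage points, y axis) for the 9 member genes and the 3 other lists. S25 and S14 lie highest for the epithelial genes and S17 and S30 lowest, while S14 alone is high and S17 and S26 are low for the member genes.

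The genes whose pattern over the 16 libraries was most like the mean of the 9 gene means were named among 5709 genes with at least 5 sites. NDUFS6 had the highest Pearson correlation (r = 0.84), followed by RIMS1 (0.76), NKX3-2 (0.76), DUSP26 (0.75) and ENSBTAG00000033122 (0.74). The most opposite were GUCY2D (-0.88), FAM83E (-0.80) and MARK2 (-0.77). All 5 of the first had their highest value in S14, and the 3 opposite genes their lowest. These are descriptions over 16 libraries that share library-wide differences, the largest values among 5709 genes.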

How the data were processed

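Per the study's methods, reads were cleaned with Trim Galore, Bismark placed them on ARS-UCD1.2, runs of a library were merged with SAMtools, and SeqMonk quantified positions with at least 10 counts. Positions with no valid value or a value of zero were discarded. The values deposited by the authors are percent methylation per position and library, without read counts or normalization between libraries. Because a count test was not possible, M = log2((percent + 1)/(100 - percent + 1)) was computed for all sites, gene means (at least 2 sites) and clusters (at least 5 sites, gaps of at most 200 bases, same gene) and tested with limma 3.58.1 in R 4.3.3. Each two-sided test used the 8 libraries of its contrast, Benjamini-Hochberg adjustment over the whole table and a threshold of 0.05. Summaries used Python 3.11.15, numpy 2.4.6 and pandas 2.3.3. Columns were assigned to groups by the group name and library number in the file. The labels do not tie libraries to single animals, so p-values measure the spread between libraries. On simulated data for CON_P against CON_noP, the site test called 0 of 2000 sites changed by 20 or by 40 percentage points and 1403 changed by 60, with 123 false calls. The members, lists and rules were chosen with earlier results of these data known, and clusters after the values were seen. Named sites were, by rule, up to 12 member sites with the lowest unadjusted p under 0.05 and no overlap of the groups (10 qualified), the widest-ranging site of each gene, and the members in the study's supplementary lists. Of other genes, the 5 most and 3 least correlated with the mean of the members and up to 3 of each list were named.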

Additional observations from a re-analysis of the deposited data

Results flagged for a closer look

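In 100 groups of 4 libraries (the 9 gene means and the 16 cluster means in each group), 5 had 1 library far from the other 3, judged by its gap to the nearest library over the whole range of the group. Chance flags about 1 in 20 such groups. At CD79A A, S27 of MET_P had 29.3% and the others 45.1% to 48.4%. At CD79A B, S25 of MET_noP had 20.2% and the others 62.1% to 65.6%. At IKZF1 A, S16 of CON_noP had 96.4% and the others 93.6% to 94.0%. S31 of MET_P stood apart at SPI1 A with 97.5%, the others at 99.0% to 99.2%, and at SPI1 C with 70.7%, the others at 76.1% to 77.0%.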

How the results depend on the processing

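The range of the mean over the 9 member genes was 10.1 percentage points between libraries as reported, 12.7 as the mean over all member sites, 14.6 with sites between 10% and 90% and 7.43 after subtraction of each library's mean over all sites. The counts of members past the adjusted threshold stayed at 0 under every alternative run, which were untransformed percentages, 0.1 in place of 1 as the offset, a trended moderation, centred libraries, sites between 10% and 90%, gene medians, at least 5 sites per gene, all libraries in 1 model, sets of consecutive library numbers as a block, and each library left out. In all, 220 such summary values stayed the same and 3 moved. Most of the 220 were counts of 0 past the adjusted threshold. Since 0 of all sites, genes and clusters passed in the 4 comparisons as reported, these counts had little room to move. They say little about stability. A count was the same if it stayed at 0. The range was the same if it changed by less than the SD of the mean over the libraries, 2.51 percentage points. The 3 that moved were the ranges of 12.7, 14.6 and 7.43 percentage points. With each of the 9 genes left out in turn, the range stayed the same. The 177 values of named sites and genes kept their direction and side of the threshold, with 0 reversed. These sites and genes were picked by an unadjusted p under 0.05 (limma) in the same data. The groups also did not overlap at the sites, so leaving out 1 library could not reverse them there. The outcome was thus largely set by the selection and is no support for stability. For MET_P against MET_noP, untransformed percentages gave 15 member sites (8.77%) at the unadjusted level, beside 5.43% of all sites and 7 member sites as reported. CSF3R and CD79B have no sites between 10% and 90%, and CSF3R and LCP1 have under 5 sites, so those alternatives gave no value there. No paired analysis was possible because the columns carry library numbers and not the replicate numbers of the labels. The sets 12 to 15, 16 to 19, 24 to 27 and 28 to 31 each hold 1 library of every group, but the labels do not say that a set shares animals or a batch. As a block they gave 1, 7, 3 and 7 member sites at the unadjusted level, beside 1, 7, 7 and 9 without it. Over all sites, the shares with the block were 3.92%, 4.97%, 5.2% and 5.27%. The order is CON_P against CON_noP, MET_P against MET_noP, MET_P against CON_P and MET_noP against CON_noP. Clusters, unadjusted counts, medians over the 9 genes and the interaction with 1 library left out were chosen after seeing the data. Without read counts, 4 libraries a group and sites that share reads limit what could pass.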
